A study of Mus musculus with 2 samples.

Results

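Histone variant genes encode histones that replace the canonical ones in part of the nucleosomes, and 10 of them were followed here among the 24354 genes of the deposited table. They were taken by symbol, from a list drawn up with earlier results of these data known: H2afz and H2afv, the genes of H2A.Z, H2afx and H2afj, the genes of H2A.X and H2A.J, H2afy and H2afy2, the genes of the macroH2A proteins, H3f3a and H3f3b, the genes of H3.3, H1f0, the gene of the linker histone H1.0, and Cenpa, the gene of the centromeric H3 variant. All 10 were present once and all 10 had at least 2 FPKM in both libraries. FPKM counts sequenced fragments relative to transcript length and library size, so levels of different genes can be set side by side.

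Poly(A) RNA of mouse embryonic stem cells (ESCs) in mesodermal differentiation was sequenced from 1 Diff–CONT culture and 1 Diff–iKO culture. The control line is called WT in the sample labels, whereas the study's methods describe it as Ino80 2f/2f, that is, with the floxed Ino80 allele but without a recombinase. The Diff–iKO line, labelled Ino80 knockout, carried the same floxed allele and CreER, a recombinase that 4-hydroxytamoxifen (4-OHTM) activates and that is expressed from the ubiquitously active ROSA26 locus. Both lines were primed in serum medium, formed embryoid bodies, were attached to gelatin at day 4, and from the next day received differentiation medium with BMP4 and 0.5 µM 4-OHTM for 7 days, so the control cells were exposed to 4-OHTM as well. How many clones or blastocysts each line stands for was not stated. With 1 library per condition, no difference has a replicate check and no p-value was computed. The 95% intervals given use an exact method on fragment numbers estimated from FPKM with the length of 1 transcript per gene, so they are approximate, above all for genes with several transcripts, and they cover counting error only.

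Most histone genes are transcribed during S phase and give messages without a poly(A) tail. Variant genes are transcribed also outside S phase, and most of them contain introns. Poly(A) libraries can measure their polyadenylated messages, but not a message without a poly(A) tail. H2A.Z sits in the nucleosomes that flank transcription start sites. The SRCAP and TIP60/p400 remodelers put it in, and the INO80 complex has been described as a remodeler that exchanges nucleosomal H2A.Z for H2A. In ESCs, H2A.Z also occupies the bivalent promoters of developmental genes.

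H2A.Z and H3.3 are each encoded by a pair of genes, and the first coding bases are printed to show how far the members of each pair can be told apart in sequencing reads. They were read from GENCODE vM21 on GRCm38, capitals mark the bases that differ within the pair, and position 1 is the A of the start codon.
H2afz, coding bases 1 to 90: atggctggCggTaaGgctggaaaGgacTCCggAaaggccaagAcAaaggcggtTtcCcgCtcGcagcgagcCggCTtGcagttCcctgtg
H2afv, coding bases 1 to 90: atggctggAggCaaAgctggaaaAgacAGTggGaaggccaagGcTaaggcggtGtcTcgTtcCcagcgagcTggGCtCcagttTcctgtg
H3f3a, coding bases 1 to 90: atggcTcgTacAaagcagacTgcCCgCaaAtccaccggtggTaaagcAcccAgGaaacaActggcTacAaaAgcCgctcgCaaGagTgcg
H3f3b, coding bases 1 to 90: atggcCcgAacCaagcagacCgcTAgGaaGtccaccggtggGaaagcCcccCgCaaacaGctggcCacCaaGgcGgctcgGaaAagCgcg
The stretches of H2afz and H2afv differed at 19 of 90 bases and those of H3f3a and H3f3b at 20 of 90. Over the whole coding sequence, H2afz and H2afv shared 79.2% of 384 bases, and 69 of their 80 differences lay at the last base of a codon. H3f3a and H3f3b shared 76.7% of 408 bases, and 81 of their 95 differences lay at that base. The longest identical run was 14 bases for the H2A.Z pair and 23 bases for the H3.3 pair, and no stretch of 50 bases was common to the members of a pair.

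Copies elsewhere in the genome were more of a limit than the partner gene. In H2afz, 33.2% of all windows of 50 bases in the reference transcript were found also in other annotated genes, all 4 of which were pseudogenes. The share was 14.9% for H3f3a, with 38 pseudogenes, 10.6% for H3f3b, 6.68% for H2afy2, 6.14% for H2afx and 2.24% for H2afj. H2afv, H2afy, H1f0 and Cenpa shared no such window. How the counting placed reads that match several genes was not stated, so the levels of H2afz, H3f3a and H3f3b are uncertain to that extent.

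Depth and sample makeup were as follows. The steps of 1 fragment in the low FPKM values gave estimated scaling totals of 29875842 fragments in Diff–CONT and 22321497 fragments in Diff–iKO, and each member rested on 365 to 18112 fragments per library. Ino80 itself stood at 8.90 FPKM in Diff–CONT and at 10.3 FPKM in the library labelled Diff–iKO, so its gene-level value was not lower there. A gene-level value cannot show whether the floxed exons were lost, and the library is therefore called by its label. Of the 10 markers of pluripotent cells, 9 were at least 2-fold higher in the library labelled Diff–iKO, and their summed level was 480 FPKM in Diff–CONT and 2996 FPKM in Diff–iKO. Dppa5a alone gave 258 and 2115 FPKM of these sums. Of the 10 visceral endoderm markers, 9 were lower and 1 was higher by that measure, with sums of 328 and 21.6 FPKM. No marker was at 0 in both libraries. Bulk RNA cannot tell fewer cells of a type from less RNA per cell.

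A gene was counted as higher or lower when its FPKM differed at least 2-fold and reached 2 FPKM in at least 1 library. Of 12376 genes that reached this level, 15.1% passed the cut-off, 6.73% as higher and 8.39% as lower in the library labelled Diff–iKO. Of the 10 histone variant genes, 4 passed it: H2afj was higher, and H2afy2, H1f0 and H3f3a were lower. The other 6 genes, H2afz, H2afv, H2afx, H2afy, Cenpa and H3f3b, did not pass, and none of them passed at 1.5-fold either, a distance that 32.5% of all tested genes reached. The median log2 ratio of the 10 genes was 0.13, against -0.0044 over all tested genes with a value in both libraries. The counting intervals lay above 0 for 6 members and below 0 for 4 members. After scaling to the same FPKM sum, that of H2afy ran from -0.06 to 0.07 and included 0, which left 5 members above 0.

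**Figure D1:**
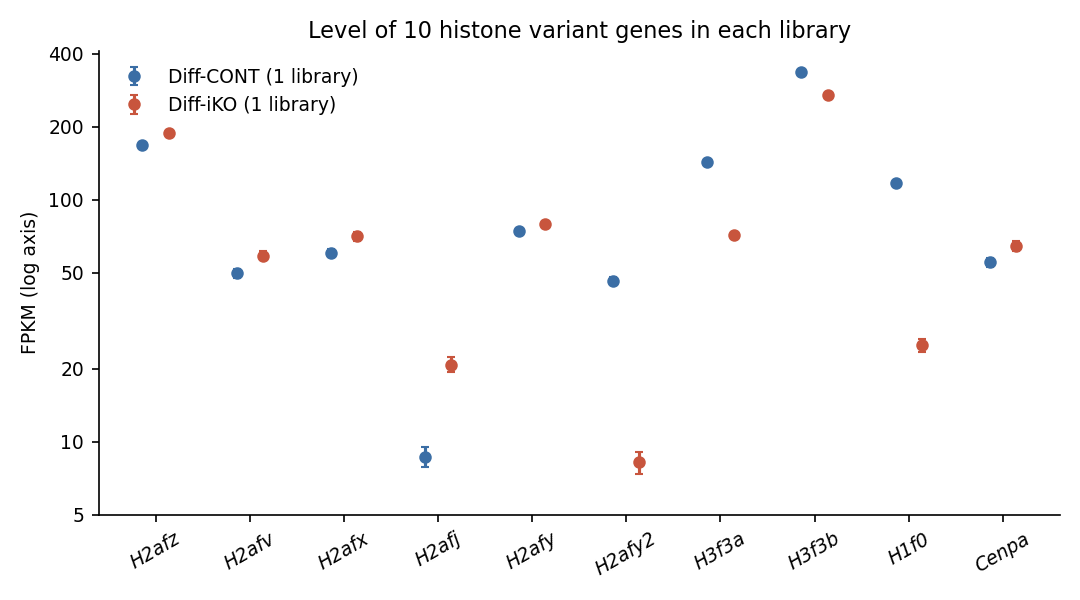
FPKM of the 10 histone variant genes in the Diff–CONT library and the library labelled Diff–iKO, on a log axis, with 95% counting intervals as bars. H3f3b was the highest in both libraries, at 335 and 271 FPKM, while H2afy2 and H1f0 lay far lower in Diff–iKO and H2afj lay higher.

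**Figure D2:**
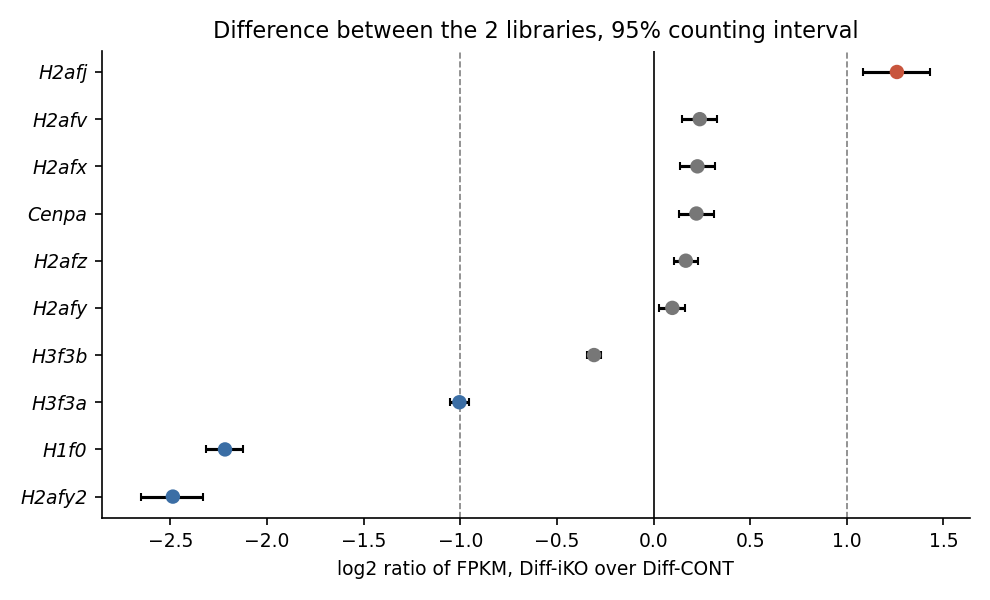
Log2 ratio of Diff–iKO over Diff–CONT for each gene, with 95% counting intervals and lines at the 2-fold cut-off. H2afy2 at -2.49 and H1f0 at -2.22 lie far beyond the cut-off, H3f3a at -1.005 lies on it, and the 5 genes between 0.10 and 0.24 lie close together.

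H2A.Z messages were abundant and similar in both libraries. H2afz, which encodes H2A.Z.1, lies on chromosome 3 at 137864487 to 137866922 of GRCm38, on the plus strand with 5 exons. Its level was 167.5 FPKM in Diff–CONT and 188.1 FPKM in Diff–iKO, which made it the second most abundant of the 10 genes in both. The log2 ratio was 0.17, with a counting interval from 0.10 to 0.23. H2afv, which encodes H2A.Z.2, lies on chromosome 11 at 6427229 to 6444443 on the minus strand. It stood at 49.8 FPKM in Diff–CONT and at 58.7 FPKM in Diff–iKO, a log2 ratio of 0.24 with an interval from 0.15 to 0.33. Both H2A.Z genes were thus slightly higher in the library labelled Diff–iKO, by less than the cut-off. After scaling to the same FPKM sum, the log2 ratios were 0.073 for H2afz and 0.15 for H2afv.

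The balance within the H2A.Z pair was also close between the libraries. H2afz made up 77.1% of the pair's FPKM in Diff–CONT, with an interval from 76.2% to 78.0%, and 76.2% in Diff–iKO, with an interval from 75.2% to 77.2%. The log2 ratios of H2afz and H2afv differed by -0.07, and the counting interval of that difference, from -0.18 to 0.04, included 0. Summed over both genes, H2A.Z messages stood at 217 FPKM in Diff–CONT and at 247 FPKM in Diff–iKO.

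The start regions of both H2A.Z genes are shown because the CCAAT box and the GC box recurred in them. That of H2afj, the only member past the cut-off as higher in Diff–iKO, is shown beside them. Each is a stretch of 120 bases before the start site in RefSeq on GRCm38.p6, 5′ to 3′ in the direction of transcription, and holds 0 to 8 exonic bases. Capitals mark CCAAT or its reverse complement ATTGG, and GGGCGG or its reverse complement CCGCCC.
H2afz, chr3:137864367-137864486, plus strand: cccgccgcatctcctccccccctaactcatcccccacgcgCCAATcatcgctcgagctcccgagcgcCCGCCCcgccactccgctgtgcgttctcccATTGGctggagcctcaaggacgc
H2afv, chr11:6444444-6444563, minus strand: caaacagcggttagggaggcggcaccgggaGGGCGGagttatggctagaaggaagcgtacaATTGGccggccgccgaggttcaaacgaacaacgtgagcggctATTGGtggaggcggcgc
H2afj, chr6:136808128-136808247, plus strand: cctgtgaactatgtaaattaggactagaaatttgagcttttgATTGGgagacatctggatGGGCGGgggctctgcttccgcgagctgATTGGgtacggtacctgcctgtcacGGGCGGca
Windows from 250 bases before to 50 bases after the start were searched on both strands for 9 of the 10 members, all but H2afx. CCAAT was found in 7 of 9, H2afz, H2afv, H2afj, H2afy2, H3f3a, H3f3b and Cenpa, and in 37.4% of all 32851 promoters. GGGCGG was found in 7 of 9, H2afz, H2afv, H2afj, H2afy, H3f3a, H1f0 and Cenpa, and in 35.7% of all promoters. TATAAA was found in 1 of 9, H3f3b, against 13.6%. TTTGAA, a form of the cell cycle element CHR, was found in H2afv and Cenpa and in 17.9% of all promoters, and TTCGAA, its other form, in 0 of 9 and in 1.56%. TTGGCGC, a form of the E2F site, was found in H2afz and H2afy2 and in 2.45% of all promoters, and TTCGCGC in 0 of 9 and in 1.59%. The GC content of 8 of the 9 windows lay above the median of all promoters, 52.7%. Members on both sides of the cut-off held CCAAT, so its presence did not divide them, and a match is only a description of the letters.

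H2afx and H2afj encode the other small H2A variants. H2A.X is the variant that is phosphorylated around DNA double-strand breaks, and its gene, on chromosome 9 at 44334694 to 44336077, has 1 exon. It stood at 60.2 FPKM in Diff–CONT and at 70.5 FPKM in Diff–iKO, a log2 ratio of 0.23 with an interval from 0.14 to 0.32. As for all members, these values cover only messages with a poly(A) tail. H2afj, which encodes H2A.J, also has 1 exon and lies on chromosome 6 at 136808244 to 136810074. It was the least abundant of the 10 genes in Diff–CONT, at 8.69 FPKM, and stood at 20.8 FPKM in Diff–iKO. The ratio was 2.39-fold, or 1.26 on the log2 scale with an interval from 1.09 to 1.43, and 95.4% of the tested genes had a lower ratio. H2afj rested on 428 and 765 fragments. Both genes shared windows of 50 bases with replication-dependent H2A genes such as Hist1h2ab, the highest of them in Diff–iKO, which stood at 0.209 and 0.831 FPKM, and 2 windows with each other.

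The macroH2A genes, whose proteins carry a large macro domain behind the histone fold, parted. H2afy, on chromosome 13 at 56073619 to 56136361 with 9 exons, stood at 74.0 FPKM in Diff–CONT and at 79.2 FPKM in Diff–iKO. Its log2 ratio was 0.10, with an interval from 0.03 to 0.16, and the values sum over the splice forms of macroH2A1. H2afy2, which encodes macroH2A2 and lies on chromosome 10 at 61738665 to 61784147, stood at 46.1 FPKM in Diff–CONT and at 8.22 FPKM in Diff–iKO. The log2 ratio of -2.49, with an interval from -2.65 to -2.33, was the lowest of the 10 genes, and 1.10% of the tested genes had a lower one. H2afy2 stood at rank 1672 of the tested genes by level in Diff–CONT and at rank 7953 in Diff–iKO.

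H2afy made up 61.6% of the macroH2A messages in Diff–CONT, with an interval from 60.5% to 62.8%, and 90.6% in Diff–iKO, with an interval from 89.6% to 91.5%. The log2 ratios of H2afy and H2afy2 differed by 2.58, with an interval from 2.41 to 2.76. The sum of both genes was 120 FPKM in Diff–CONT and 87.4 FPKM in Diff–iKO. Aifm2 overlaps H2afy2 by 233 exonic bases on the opposite strand and stood at 3.79 and 6.34 FPKM, so its level went the other way.

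Within the 6 genes of the H2A class, the H2A.Z genes contributed 53.5% of the FPKM in Diff–CONT and 58.0% in Diff–iKO. The macroH2A genes contributed 29.6% and 20.54%, H2afx 14.8% and 16.6%, and H2afj 2.14% and 4.89%. The sum of the 6 genes was nearly the same in both libraries, at 406 and 425 FPKM, so the composition differed more than the total.

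**Figure D3:**
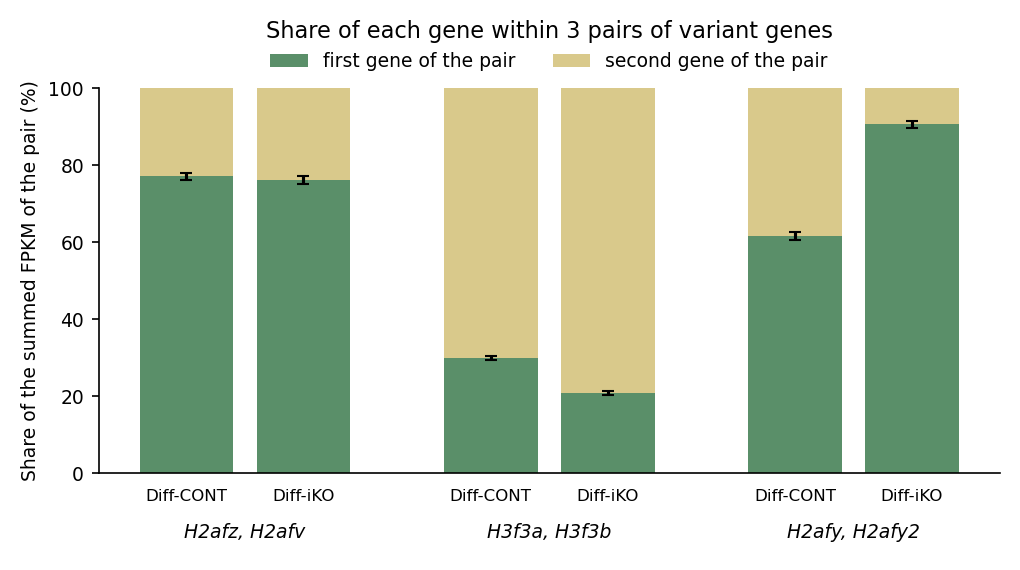
Share of the first gene of each pair in the pair's summed FPKM, in percent, for H2afz of the H2A.Z genes, H3f3a of the H3.3 genes and H2afy of the macroH2A genes, with 95% counting intervals. The H2A.Z share was 77.1% and 76.2%, while the H3.3 share was lower in Diff–iKO, 20.9% against 29.96%, and the macroH2A share was higher, 90.6% against 61.6%.

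H3.3 differs from the canonical H3 proteins by a few residues and is deposited also outside S phase, and its genes H3f3a and H3f3b encode the same protein. H3f3a lies on chromosome 1 at 180800832 to 180813943 on the minus strand, with 4 exons, and stood at 143 FPKM in Diff–CONT and at 71.4 FPKM in Diff–iKO. Its log2 ratio of -1.005 lies at the cut-off, and the interval from -1.06 to -0.95 holds values on both sides of it. With a pseudocount of 1 FPKM or after scaling to the same upper quartile it stood at -0.99 and did not pass. H3f3b lies on chromosome 11 at 116021912 to 116027962 and was the most abundant member, with 335 FPKM in Diff–CONT and 271 FPKM in Diff–iKO. Its log2 ratio was -0.31, with an interval from -0.34 to -0.27. The H3.3 genes both stood lower in Diff–iKO, H3f3a more so.

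H3f3a made up 29.96% of the H3.3 messages in Diff–CONT, with an interval from 29.5% to 30.5%, and 20.9% in Diff–iKO, with an interval from 20.3% to 21.5%. The log2 ratios of H3f3a and H3f3b differed by -0.70, with an interval from -0.76 to -0.64. In sum, H3.3 messages stood at 478 FPKM and 342 FPKM, a log2 ratio of -0.48. The antisense gene H3f3aos and the noncoding gene Gm17275 overlap H3f3a by 160 and 638 exonic bases, and the strand setting of the counting was not stated. Antisense or miRNA genes on the opposite strand overlap exons of H2afx, H2afj, H2afy and H1f0 as well, by 141, 141, 501 and 163 bases.

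Cenpa encodes the H3 variant that marks centromeres, and it lies on chromosome 5 at 30666777 to 30674830 with 5 exons. It stood at 55.2 FPKM in Diff–CONT and at 64.4 FPKM in Diff–iKO. The log2 ratio was 0.22, with an interval from 0.13 to 0.31, close to those of H2afz, H2afv and H2afx. As the protein is loaded once per cell cycle, Cenpa is often read with proliferation genes. Of 26 proliferation genes, 0 passed the cut-off, against 15.1% of all tested genes. Their median log2 ratio was -0.13 and their range was -0.61 to 0.44, with 20 genes below 0 and 6 above it. Mcm7, a helicase subunit, stood at 98.4 and 110 FPKM, and Pcna, the replication clamp, at 108 and 94.2 FPKM.

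H1f0 encodes the linker histone H1.0, which accumulates in cells that leave the cell cycle and differentiate. The gene has 1 exon and lies on chromosome 15 at 79028450 to 79030504. It stood at 117 FPKM in Diff–CONT, above 6 of the other members, and at 25.1 FPKM in Diff–iKO, above 2 of them. The log2 ratio was -2.22, with an interval from -2.31 to -2.12, and 1.41% of the tested genes had a lower ratio. H1fx, the gene of the linker variant H1.X, stood at 26.9 FPKM in Diff–CONT and at 14.02 FPKM in Diff–iKO, a log2 ratio of -0.94 that did not pass the cut-off except after scaling to the same FPKM sum. The pluripotent and visceral endoderm marker levels given above differed between the same libraries. So did markers of cardiomyocytes, endothelial cells, mesenchyme and trophoblast, counted under the processing of the data. The part of these cell types in the values of H1f0, H2afy2, H3f3a and H2afj was not tested.

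**Figure D4:**
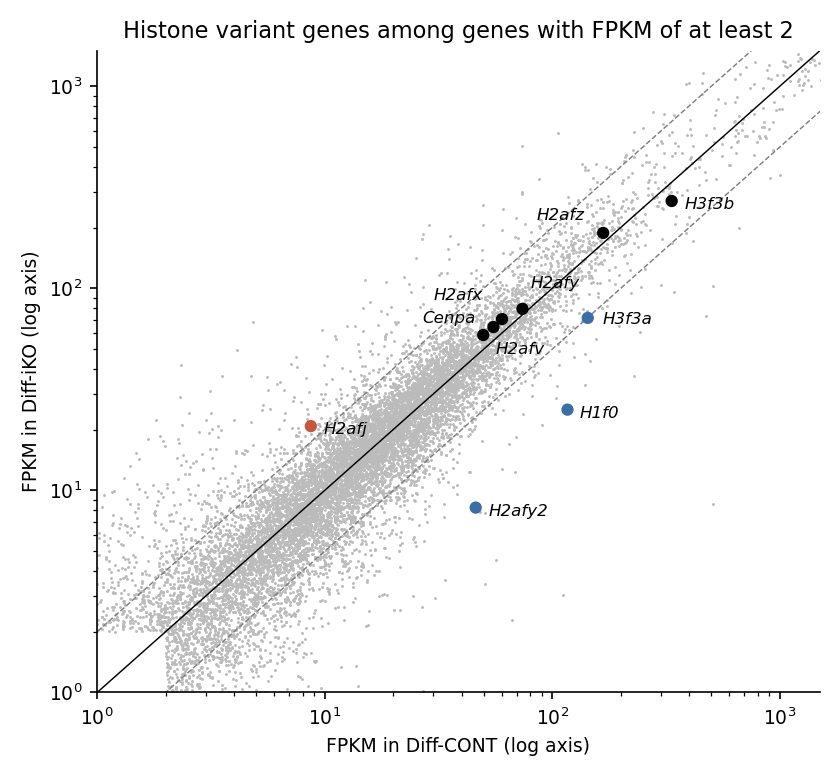
FPKM in Diff–iKO against FPKM in Diff–CONT on log axes for the tested genes, in grey, with the 10 histone variant genes named and lines at equal level and at the 2-fold cut-off. H1f0, H2afy2 and H3f3a lie below, H2afj lies above, and the other 6 members lie between the lines.

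The order of the levels was the same in both libraries for the first 2 genes and differed from there on. From high to low it was H3f3b, H2afz, H3f3a, H1f0, H2afy, H2afx, Cenpa, H2afv, H2afy2 and H2afj in Diff–CONT. In Diff–iKO it was H3f3b, H2afz, H2afy, H3f3a, H2afx, Cenpa, H2afv, H1f0, H2afj and H2afy2. Of the neighbours in these orders, H3f3a and H2afx in Diff–iKO were the pair whose log2 level ratio, 0.02 with a counting interval from -0.06 to 0.10, included 0. The next closest neighbours, H2afv and H2afy2 in Diff–CONT, had a log2 level ratio of 0.11 with an interval from 0.03 to 0.19. These intervals cover counting error alone, and the spread between cultures is not known. The genes with the most similar pair of levels to H2afz, by distance on the log2 FPKM scale over 2 libraries and 11160 genes, were Capzb, Ctnna1 and Mmp14. For Cenpa they were Dnaja2, Pmpca and Mllt4. With only 2 values per gene, such likeness describes the levels alone.

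The partner lists are read beside the 15.1% of all tested genes that passed the cut-off. Of 21 genes of the exchange machinery, comprising SRCAP and TIP60/p400 subunits and Anp32e, 0 passed it, and the median log2 ratio was -0.04 with a range from -0.82 to 0.37. Srcap, the ATPase that loads H2A.Z, stood at 21.0 FPKM in Diff–CONT and 22.1 FPKM in Diff–iKO, and Ep400, the ATPase of TIP60/p400, at 22.3 and 21.6 FPKM. Anp32e, the chaperone that removes H2A.Z, had the lowest ratio of the list, at 56.3 and 31.9 FPKM. Morf4l2 and Morf4l1, the most abundant of the list and subunits of TIP60/p400, stood at 237 and 281 FPKM and at 145 and 93.7 FPKM. Srcap, Ep400 and Anp32e were named after their values were seen.

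Of 12 genes for H3.3 deposition, 0 passed, with a median of -0.07 and a range from -0.80 to 0.43. Nasp, a chaperone of H3 and H4, had the lowest ratio, at 132 FPKM in Diff–CONT and 75.3 FPKM in Diff–iKO, and Rbbp7, another H4 chaperone, stood at 234 and 186 FPKM. Of 19 genes for CENP-A loading and the inner kinetochore, 0 were higher and 2 were lower, a share close to that of all tested genes, and 1 passed with a pseudocount of 1 FPKM. The 2 genes were Oip5, a subunit of the Mis18 complex that prepares centromeres for CENP-A, at 10.5 and 4.65 FPKM, and Cenpk, an inner kinetochore subunit, at 10.8 and 5.16 FPKM. The median of the list was 0.09, and its most abundant genes, Cenpt and Cenph, stood at 32.5 and 30.6 FPKM and at 21.9 and 26.1 FPKM.

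Of 17 genes that phosphorylate, dephosphorylate or read H2A.X, 0 were higher and 3 were lower, also close to the share of all tested genes, and the median was -0.07. The count was 2 with a pseudocount of 1 FPKM and 1 where both libraries had to reach 2 FPKM. Eya2 and Eya1, phosphatases that act on H2A.X and developmental transcription cofactors, stood at 3.304 and 0.850 FPKM and at 3.69 and 1.24 FPKM. Prkdc, the DNA-dependent protein kinase, stood at 5.09 and 2.21 FPKM. Ppp4c and Baz1b, the most abundant of the list, did not pass, at 76.3 and 75.3 FPKM and at 37.7 and 45.5 FPKM. Of 10 genes of general histone chaperones, 0 passed, and the median was -0.03. The list holds FACT and NAP1 genes and also Npm1, Npm3, Chaf1a, Chaf1b and Supt6. Npm1 stood at 1199 and 1336 FPKM and Nap1l1 at 353 and 299 FPKM.

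**Figure D5:**
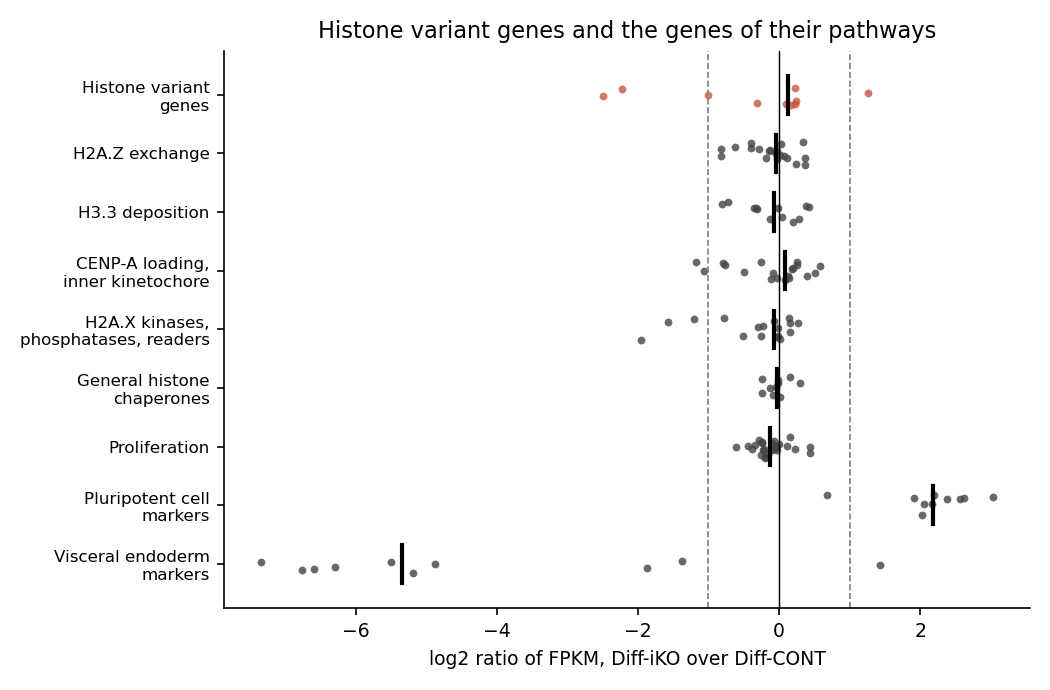
Log2 ratio of Diff–iKO over Diff–CONT for the histone variant genes and each tested gene of the partner and proliferation lists, as points. Of the marker lists, those of pluripotent cells and visceral endoderm are shown. The list median is a bar, and lines mark the 2-fold cut-off. The partner and proliferation medians lie between -0.13 and 0.09, while the pluripotent median is 2.18 and the visceral endoderm median is -5.34.

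Other variant genes were hardly present. Of 13 further histone variant genes, many of them germ cell variants, 12 were in the table, 9 of these were at 0 in both libraries and H1fx alone reached 2 FPKM. H2afb1 stood at 0.098 FPKM in Diff–CONT and at 0 in Diff–iKO. The 10 members thus made up most of the variant messages measured, with a sum of 1057 FPKM in Diff–CONT and 857 FPKM in Diff–iKO.

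Within 100 kb of the 10 genes, 48 genes reached the FPKM minimum, and 4 of them passed the cut-off, that is, 8.33%, against 15.1% of all tested genes. With so few genes around each member, these counts are a description of the surroundings. Around H1f0, 0 of 8 passed, around H2afy2 0 of 5 and around H2afz 0 of 3. Near H3f3a, Lefty2, a Nodal antagonist, was higher at 108 FPKM in Diff–iKO against 18.6 FPKM, while H3f3a was lower. Near H2afj, the matrix protein gene Mgp was lower at 41.1 FPKM against 83.2 FPKM, while H2afj was higher. Near Cenpa, Dpysl5 was lower, at 17.0 and 6.17 FPKM, and near H3f3b, Unc13d was higher, at 1.57 and 3.48 FPKM.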

How the data were processed

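Poly(A) RNA of 1 Diff–CONT and 1 Diff–iKO culture was used. The values that the authors deposited are FPKM of 24354 genes. The submitters' processing notes name STAR 2.7.9a, mm10, Cuffnorm and Cufflinks 2.2.1. The study's methods name a stranded mRNA library kit (TruSeq). Annotation, the strand setting of the counting and read number are not given in the sources used here. Columns were assigned by name, and 0 other columns of values were present.

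Log2 ratios were taken without a pseudocount. Fragments were recovered from steps in the low FPKM values of 4397 genes with 1 transcript. Of 902 low values in Diff–CONT and 957 in Diff–iKO, 95.7% and 95.8% lay within 0.1 of a whole multiple. Evenly spread values would give 20%, but the fit chose the settings with the largest share, so this is no independent check. Clopper-Pearson 95% intervals used fragments estimated from FPKM, the length of 1 GENCODE vM21 transcript per gene and a fitted length offset of 184 bases. Members have 1 to 10 annotated transcripts, and the annotation behind FPKM may differ, so these fragments are approximate. The fragment step was tested on simulated data. Coordinates are from GENCODE vM21. Histone variant messages without a poly(A) tail are missed by these libraries.

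Members and lists were chosen with earlier results of these data known. Named genes were the members, Ino80, the 2 most abundant genes of each list, those past the cut-off (at most 4 per list) and the 3 genes nearest to H2afz and Cenpa, and not all are printed. Neighbours and the lowest gene of a list were named after their values were seen. Of 5 tested cardiomyocyte markers 4 were lower, of 10 endothelial markers 3 were higher and 7 lower, of 10 mesenchyme markers 6 were lower, and of 8 tested trophoblast markers 5 were higher and 2 lower. Computations used scipy 1.17.1, pandas 2.3.3 and numpy 2.4.6 under Python 3.11.15, and plots matplotlib 3.10.9.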

Additional observations from a re-analysis of the deposited data

How the results depend on the processing

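No paired analysis was possible because each condition had 1 library. Alternatives were pseudocounts of 0.1 and 1, 3 other scalings, other FPKM filters and a fold of 1.5. Summing rows of one symbol could change no value, as no symbol was repeated. No member changed direction under the pseudocounts and scalings, and the filters and folds leave the ratios as they are. The count of members past the cut-off was 4, except 3 with a pseudocount of 1 and after scaling to the upper quartile, where H3f3a stood at -0.99 in both. Scaling to the same FPKM sum shifted all log2 ratios by -0.09. It moved the median of the members to 0.039, H2afz to 0.073, H2afv to 0.15, H2afx to 0.13, Cenpa to 0.13, H2afy to 0.0037, H3f3a to -1.10 and H3f3b to -0.40, and put 1 other variant gene, H1fx, past the cut-off. With a pseudocount of 1, 1 CENP-A gene passed. With at least 2 FPKM in both libraries, 1 H2A.X gene passed. With no filter, 2 other variant genes, H2afb1 and Hist1h1t, passed, each against a library at 0, so these are no folds. At a fold of 1.5, 32.5% of all tested genes passed. The counts were 3 of 21 H2A.Z exchange genes, 2 of 12 H3.3 deposition genes, 5 of 19 CENP-A genes and 4 of 17 H2A.X genes. They were 0 of 10 general histone chaperone genes, 1 of 1 other variant gene and 1 of 26 proliferation genes. Over all genes, the higher and lower counts were 833 and 1038, against 488 and 569 with at least 2 FPKM in both libraries, 2794 and 2761 with no filter, 1846 and 2177 at a fold of 1.5, 702 and 1226 after scaling to the same FPKM sum, and 807 and 1002 or 646 and 712 with a pseudocount of 0.1 or 1. By fragments not divided by length, H2afz made up 67.3% and 66.2% of its pair and H3f3a 38.6% and 27.9% in Diff–CONT and Diff–iKO, and H2afy 60.0% in Diff–CONT, since that count favours the longer transcript. The fewest fragments behind a member's level were the 365 of H2afy2 in Diff–iKO.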
